A study of Mus musculus with 6 samples.

Results

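Malat1 is a long noncoding RNA, that is, a long RNA without a protein product, and its long mouse transcript was followed here in the hearts of swim-trained and sedentary mice. It is 1 row of the deposited count table, ENSMUST00000172812, out of 46746 transcript rows, and it was taken by that Ensembl transcript ID, with earlier results of these data known. That table is named as a table of long noncoding RNAs, and whether it also holds protein-coding transcripts was not checked. Every total, share, level and rank given here is relative to its rows, and not to all RNA of the heart. The files name rows by transcript ID only, and 0 of them could be matched to the tables of gene names at hand, so the pairing of this ID with Malat1 (gene ENSMUSG00000092341) comes from Ensembl naming and was not checked on the files.

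The libraries were made from whole hearts of male C57BL/6 mice, 8 to 10 weeks old per the labels. In the exercise hypertrophic preconditioning group (EHP), the mice swam over 3 weeks, 2 sessions a day on 5 days a week, in sessions lengthened from 15 to 90 minutes, and then rested for 1 week before the heart was taken. The labels also give 21 days of swimming for EHP, and whether this is the span or the days swum is not clear. The sedentary group (Sed) moved freely in the cage for 4 weeks. No mouse of either group carried a labelled transgene or deletion. Each group had 3 libraries, and the labels do not say whether a library is 1 animal or a pool, so each p-value speaks only of the spread from library to library.

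As background, Malat1 RNA stays in the nucleus and collects in nuclear speckles, the bodies that store splicing factors. It is among the most abundant long noncoding RNAs of many tissues and is made in most cell types of the heart, including endothelial cells, muscle cells and fibroblasts. Its end is not made by ordinary polyadenylation: an enzyme cuts the primary transcript, a small tRNA-like RNA called mascRNA is released, and a triple helix protects the end that remains. How well a library captures such an end depends on how it was prepared, and which RNA was selected for these libraries is not stated in the labels. In RefSeq's annotation of the mouse assembly GRCm38.p6, Malat1 is an lncRNA gene that lies next to Neat1, the lncRNA that builds paraspeckles. Mascrna is the RefSeq gene that overlaps it. That assembly is not the build named for these files, mm9, so no position is given.

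The Malat1 transcript was higher in the trained hearts. Its raw counts were 157740, 144644 and 151335 in Sed replicates 1, 2 and 3. In EHP replicates 1, 2 and 3 they were 163194, 199100 and 206947. Every trained library held more Malat1 counts than every sedentary one, although the trained libraries held fewer counts in all. This was not particular to Malat1, since some other abundant rows did the same. The share of all rows that did so in raw counts was not taken. After scaling of the libraries, it was 24.8% of the tested rows. The lowest EHP count exceeded the highest Sed count by 5454, and the ratio of these closest 2 libraries was 1.03 before any scaling. The group means were 189747 ± 23328 counts in EHP and 151240 ± 6549 counts in Sed (mean ± SD, n = 3 libraries a group), a ratio of 1.25.

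Library totals over the rows of the table ranged from 6757585 to 6879244 counts in EHP and from 8703851 to 9532515 in Sed. All EHP totals lay under all Sed totals, so the total over these rows and training cannot be told apart by group. Sequencing depth over all RNAs was not examined, so whether these totals follow it is not known. The total without Malat1 was 6611255 ± 57355 counts in EHP and 9059147 ± 445188 in Sed (mean ± SD, n = 3 libraries a group), a ratio of 0.730. The count of Malat1 and the summed count of the other rows thus differed between the groups in opposite directions. This holds for the sum only, as some single rows also had higher counts in EHP. No batch, date or sequencing run was labelled, so a difference in handling between the groups cannot be told apart from training.

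Per library, Malat1 took 1.68%, 1.52% and 1.74% of the counts over all rows of the table in Sed replicates 1, 2 and 3. It took 2.41%, 2.95% and 3.01% in EHP replicates 1, 2 and 3. In other words, 1 of every 57.5 to 65.9 counts was Malat1 in the sedentary libraries, and 1 of every 33.2 to 41.5 in the trained ones. The exact 95% binomial intervals of the shares were narrow, from 1.510% to 1.525% in Sed replicate 2, which was the lowest library, and from 2.996% to 3.021% in EHP replicate 3, the highest. These intervals treat reads as independent and leave out the spread between libraries. Reads amplified by PCR are not independent molecules, so the intervals can be too narrow even for counting error.

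The mean share was 2.79 ± 0.33% in EHP and 1.65 ± 0.12% in Sed (mean ± SD, n = 3 libraries a group), a difference of 1.14 percentage points and a ratio of 1.70. The groups did not overlap, with a gap of 0.673 points between the lowest EHP and the highest Sed library. The exact two-sided permutation test over libraries gave p = 0.1, the smallest that 3 against 3 libraries allow. In counts per 1000000 (CPM) of all counts, Malat1 stood at 16790, 15174 and 17387 in Sed replicates 1, 2 and 3 and at 24119, 29463 and 30083 in EHP replicates 1, 2 and 3.

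**Figure D1:**
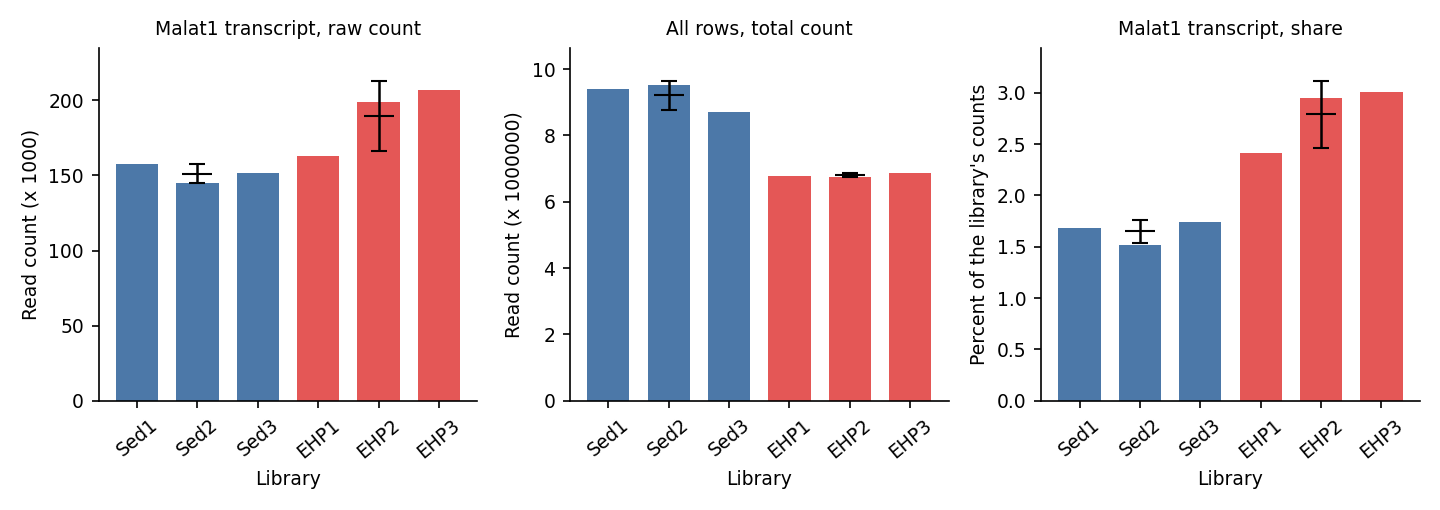
Raw count of the Malat1 transcript , total count of all rows and Malat1's percent of the library's counts, 1 bar per library (blue, Sed; red, EHP); the black mark and bar over each group's middle library are the group mean ± SD (n = 3). The EHP libraries hold 163194 to 206947 Malat1 counts against 144644 to 157740 in Sed, on smaller totals, so that the share is 2.41% to 3.01% against 1.52% to 1.74%.

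Across the 20044 rows with enough counts to be tested, the fit put Malat1 at 0.77 on the log2 fold change scale (SE 0.10; quasi-likelihood test of edgeR, Benjamini-Hochberg adjusted p = 0.000126). This is a 1.70-fold higher level in EHP relative to the scaled counts of the table's rows, with a 95% interval of 1.45-fold to 1.99-fold. A level relative to all RNA of the heart could not be given from these counts. On the scale used in that test, CPM after trimmed-mean (TMM) scaling of the libraries, the level was 28068 ± 2801 in EHP and 16502 ± 1245 in Sed (mean ± SD, n = 3 libraries a group). The exact two-sided permutation test on these values, higher in 3 of 3 EHP libraries, also gave p = 0.1, and so did that on the rank of Malat1 in each library. Adjusted over these 3 measures by Benjamini-Hochberg, each permutation p stayed at 0.1. In a bulk heart sample, more Malat1 per cell and more cells rich in Malat1 cannot be told apart. Markers of the heart's cell types were not analysed, since rows carry no gene names.

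A call of this kind was common in the table. Of all tested rows, 37.2% were called at an adjusted p under 0.05, and 18.7% were called as higher in EHP. The 2 groups did not overlap for 49.3% of the tested rows, and for 24.8% the EHP libraries lay wholly above the Sed libraries, as they did for Malat1. Malat1 was 1 of 3739 called rises, and 548 rises had a smaller p. Its fold change was moderate among them: 54.2% of the called rises were larger, and the median called rise had a log2 fold change of 0.81. Among all tested rows, 12.2% had a larger log2 fold change than Malat1. The middle 50% of the tested rows lay between -0.33 and 0.43, with a median of 0.02.

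**Figure D2:**
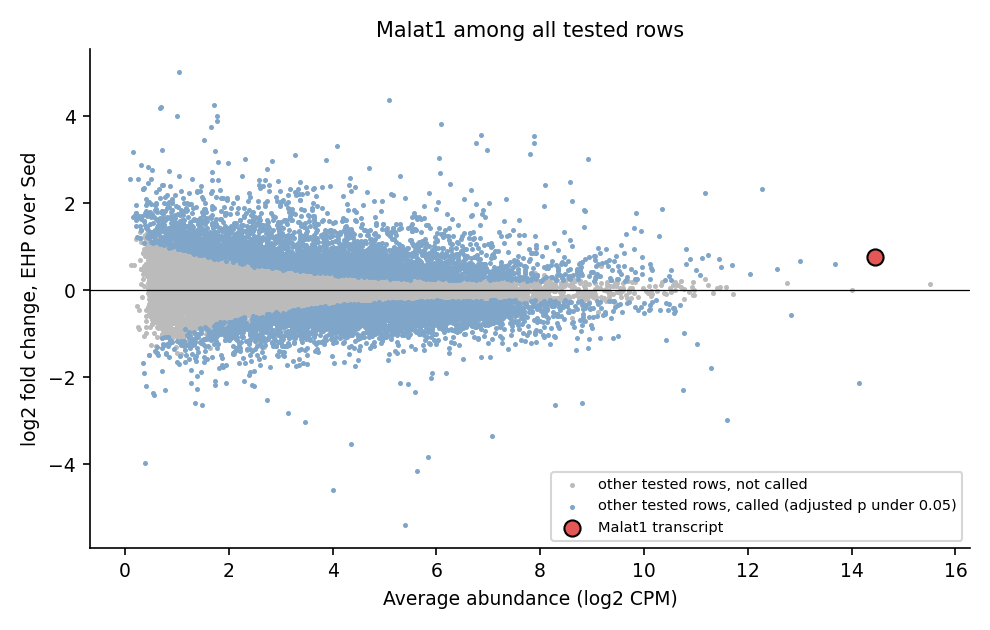
Each point is 1 of the 20044 tested rows, with edgeR's average abundance in log2 CPM on the horizontal axis and the log2 fold change of EHP over Sed on the vertical axis. Malat1 (red) lies at the far right, at 14.44 log2 CPM and a log2 fold change of 0.77, well inside the vertical range of the called rows (blue) and to the right of every other called row.

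Malat1 was far more abundant than most tested rows, so that a moderate fold change was a large change in counts. Its count was 4666 to 5218 times the median count of the detected rows in the Sed libraries and 6277 to 7665 times that median in the EHP libraries. By raw count among the rows of the table, it ranked 4, 4 and 3 in Sed replicates 1, 2 and 3 and 2 in each EHP library. The sedentary libraries did not all have the same row order at the top, and in each trained library 1 row had more counts than Malat1. Ranks are by count and not per length, since the files give no transcript lengths, and a longer RNA yields more counts for the same number of molecules.

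Of all rows, Malat1 gained the most share: 1.14 percentage points, against 0.657 for the row with the next largest gain. This was 7.75% of the 14.8 points gained by all rows that took a larger mean share in EHP. The largest loss of any row was -2.28 points. Because shares add up to 100%, the gain of Malat1 alone lowers the mean share of everything else from 98.4% to 97.2% of counts. That is a fall of 1.16% in the rest, or a shift of -0.017 on the log2 scale. The shift is small beside the log2 fold change of Malat1 itself.

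Within the 20 rows of highest mean abundance, 45.0% were called higher in EHP, and Malat1 had the next to largest rise of the 20, ranking 2 by log2 fold change. It ranked 9 among the 100 most abundant rows, of which 33.0% were called higher, and 36 among the 500 most abundant, of which 28.2% were. The median log2 fold change was 0.16 over the 20, 0.08 over the 100 and -0.01 over the 500. The closest of the 20 to Malat1 was the row at abundance rank 18, with a log2 fold change of 0.73 and a 95% interval of 0.53 to 0.92, which overlaps the interval of 0.54 to 0.99 for Malat1. The difference between these rows was not tested. The rows of the 20 are described by rank alone, as the files do not pair them with genes.

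**Figure D3:**
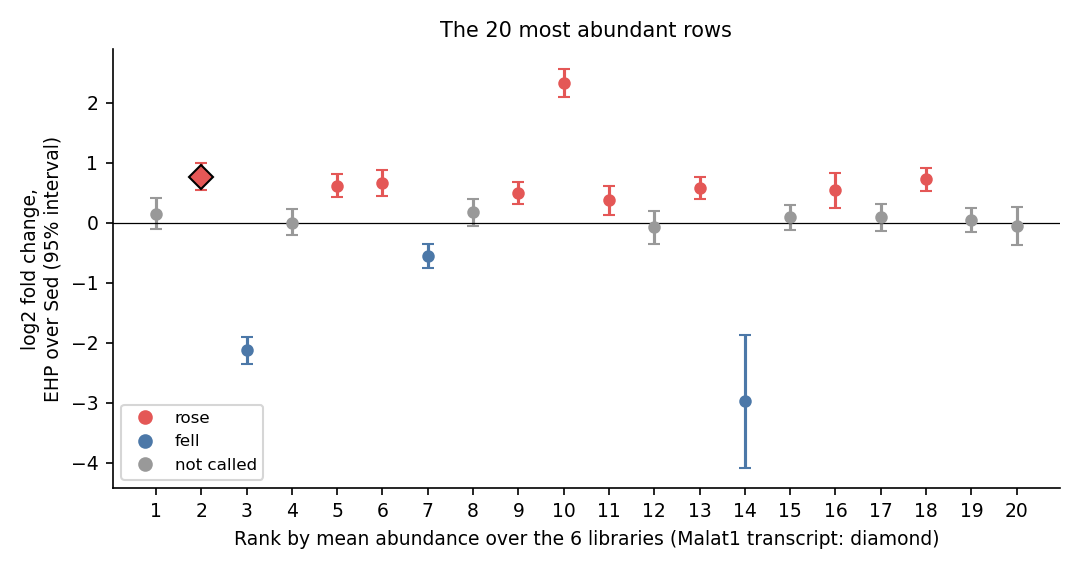
Log2 fold change of EHP over Sed with its 95% interval for the 20 rows of highest mean abundance, ordered by abundance rank (red, rose; blue, fell; grey, not called at an adjusted p under 0.05). Malat1 (diamond, rank 2) stands at 0.77, and the row at rank 10, at 2.33, is the 1 row of the 20 above it.

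Ratios of counts within a library do not depend on how libraries are scaled, and the ratio of Malat1 to most of the other abundant rows was higher in EHP too. The row at abundance rank 1 was not called (log2 fold change 0.15, 95% interval -0.10 to 0.41, edgeR adjusted p = 0.328). Malat1 reached 35.2%, 36.3% and 41.1% of that row's count in Sed replicates 1, 2 and 3, and 43.4%, 62.8% and 69.9% in EHP replicates 1, 2 and 3. These groups do not overlap, but EHP replicate 1 lay only 2.30 points above Sed replicate 3. Against the row at rank 4, whose fitted change was 0.00 (95% interval -0.21 to 0.22), Malat1 stood at a count ratio of 1.01 ± 0.09 in Sed and 1.73 ± 0.32 in EHP (mean ± SD, n = 3 libraries a group). The row at rank 3 fell, and the ratio of Malat1 to it was 0.558 ± 0.018 in Sed and 4.16 ± 0.61 in EHP (mean ± SD, n = 3 libraries a group).

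Over the other 19 rows of the 20, the ratio of Malat1 to the row was higher in all EHP than in all Sed libraries for 12 rows. For 6 rows the groups overlapped, and for 1 row, at abundance rank 10, the ratio was lower in all EHP libraries. Each of the 6 overlapping rows had itself risen, and the 12 included all 3 rows of the 20 that fell. Malat1 had a larger log2 fold change than most of the 20. Higher ratios to most of them thus follow from the fitted values and are not separate evidence. Measured against the geometric mean of the 19, Malat1 stood at 3.31, 3.22 and 3.28 in Sed replicates 1, 2 and 3 and at 4.45, 5.60 and 5.74 in EHP replicates 1, 2 and 3. The sedentary values were close together, at 3.27 ± 0.05, and the trained ones were spread more widely, at 5.26 ± 0.71 (mean ± SD, n = 3 libraries a group). These ratios were chosen after the data had been seen.

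The trained libraries differed among themselves. EHP replicate 1 had the lowest Malat1 level of the 3, and EHP replicates 2 and 3 were alike, with CPM ratios of 1.22 and 1.25 to replicate 1 and of 1.02 to each other. Among the sedentary libraries the ratios of the higher to the lower were 1.04 to 1.15. Across the groups, the 9 ratios of an EHP to a Sed library ran from 1.39, for EHP replicate 1 over Sed replicate 3, to 1.98, for EHP replicate 3 over Sed replicate 2. The smallest ratio between groups was thus larger than the largest within a group. Without EHP replicate 1 the log2 fold change was 0.84, and without EHP replicate 3 it was 0.72.

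Counting error was small beside this spread. For the Malat1 counts, sampling noise alone gives a coefficient of variation (CV, the SD as a percent of the mean) of 0.220% to 0.263% per library. The observed CV of TMM-scaled CPM was 9.98% in EHP and 7.54% in Sed. Among the 100 most abundant rows the median CV was 5.12% in EHP and 8.18% in Sed. In EHP, 15 of these 100 rows varied more than Malat1, and in Sed 53 did. The dispersion that edgeR fitted for Malat1 corresponded to a CV of 9.94% between libraries, beside 10.4% for the trend at its abundance.

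The counts of Malat1 were also fitted under other settings. After each library was thinned to the size of the smallest, Malat1 had a log2 fold change of 0.77 (SE 0.10; adjusted p = 8.12e-05 by edgeR). Thinning takes counts from all rows of a library alike, so for a row of this abundance it leaves the share nearly as it was and says nothing on depth as a cause. Scaled to the 19 other most abundant rows, the log2 fold change of Malat1 was 0.69 (SE 0.10; adjusted p = 9.9e-05 by edgeR). Under that scaling the split of calls over all rows moved, with 39.4% of calls higher in EHP against 50.1% under TMM. Over 17 alternative fits the log2 fold change of Malat1 lay between 0.69 and 0.84, and its adjusted p between 1.36e-12 and 0.00136. All 17 kept the direction and passed the threshold.

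**Figure D4:**
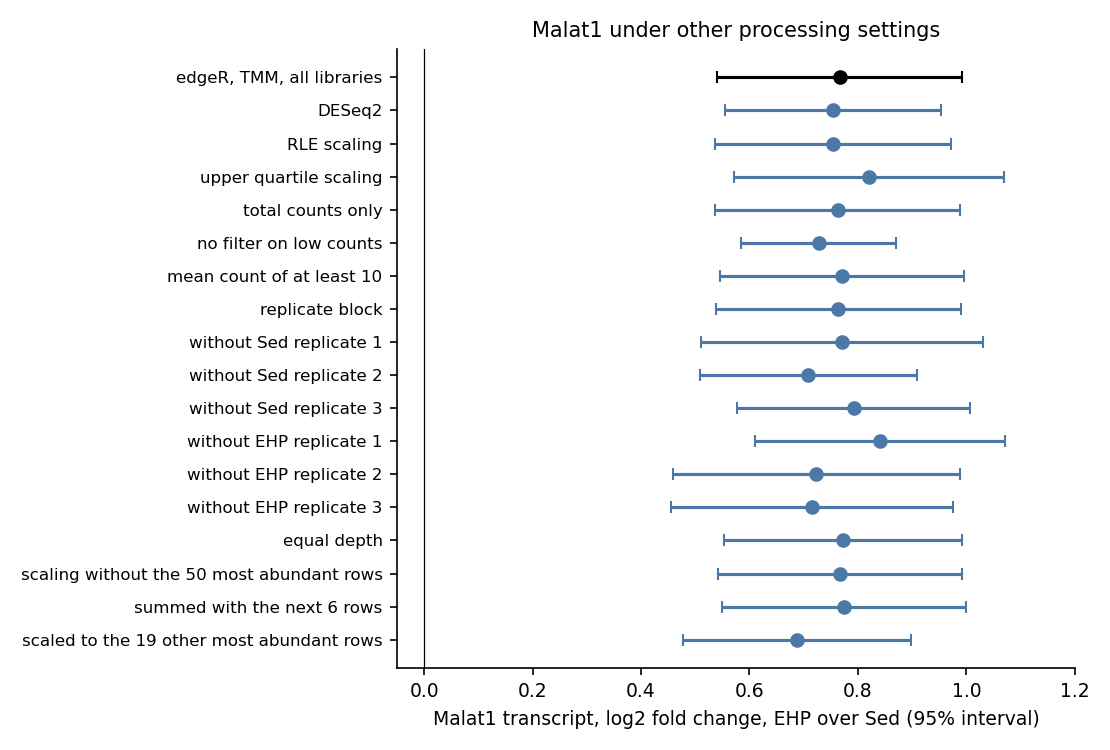
Log2 fold change of the Malat1 transcript, EHP over Sed, with its 95% interval, in the fit reported above (black, top) and in 17 alternative fits (blue), 1 per line. The values lie between 0.69 and 0.84, and no interval reaches 0; the lowest lower bound is 0.45.

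The authors' deposited table gave a log2 fold change of 0.73 (SE 0.10) for the Malat1 transcript, or 1.65-fold, with an adjusted p of 1.18e-11. Of the transcripts that the authors' deposited table lists, 27884 in all, 9.57% were higher in EHP at an adjusted p under 0.05, or 12.2% of those that have an adjusted p. By its mean normalised count of 173368, Malat1 ranked 2 in the authors' deposited table, and by p it ranked 351. The edgeR value was higher than that of the authors' deposited table by 0.04 on the log2 scale. Both come from the same libraries and are not independent.

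The 2 rows named here followed Malat1 most closely across the libraries, by Pearson's r of log2 CPM over the 6 libraries among 3525 other rows with a mean of at least 50 CPM. ENSMUST00000161314 had r = 0.995 and was 1.36-fold higher in EHP after TMM scaling (log2 fold change 0.44, SE 0.09). Its counts were 509, 498 and 467 in Sed replicates 1, 2 and 3 and 437, 510 and 529 in EHP replicates 1, 2 and 3. ENSMUST00000148787 had r = 0.994 and was 1.31-fold higher in EHP after TMM scaling (log2 fold change 0.39, SE 0.08). Its counts were 620, 597 and 565 in Sed replicates 1, 2 and 3 and 533, 592 and 593 in EHP replicates 1, 2 and 3. In both rows EHP replicate 1 was the lowest of the trained libraries in counts, as for Malat1. Unlike those of Malat1, these counts overlapped between the groups, so the higher level in EHP appeared only after scaling to the smaller EHP totals. Both are scarce beside Malat1, at abundance ranks 2820 and 2346. In all, 197 of the 3525 rows, or 5.59%, had r over 0.95, and 476 had r under -0.95. The libraries form 2 separate groups, so an r of this kind takes in the difference between the groups and describes these libraries only. Since the 2 rows were chosen by this r, a higher scaled level in EHP was built into the choice and is not separate evidence.

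The rows that stand next to Malat1 in the table were looked at after the data had been seen, because each isoform of a gene, and each transcript that overlaps another, is counted in a separate row. Of the 6 rows that follow it, 5 had 0 counts in every library. The last of the 6 had 4233, 4514 and 4775 counts in Sed replicates 1, 2 and 3 and 6202, 7378 and 6815 in EHP replicates 1, 2 and 3. It rose by 1.03 on the log2 scale (SE 0.10; adjusted p = 7.82e-06 by edgeR), and all its counts together were 3.32% of those of Malat1. Of the 6 rows that come before Malat1, 3 had enough counts to be tested, of which 2 fell and 0 rose. The table does not say whether rows that stand together lie together in the genome, and these rows are not paired with genes. With the counts of the 6 following rows added to those of Malat1, the log2 fold change came to 0.77 (SE 0.10; adjusted p = 0.000112 by edgeR). The added counts were few beside those of Malat1, so this sum could hardly change the value. Whether strand was used in the counting is not stated in the labels, so reads of an antisense transcript over Malat1 could not be separated from its own.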

How the data were processed

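The deposited table holds raw read counts per Ensembl transcript for 3 EHP and 3 Sed libraries. The submitters' processing notes name HISAT2, StringTie, DESeq2 and the build mm9; tool versions, the counting program and its use of strand, and the annotation are not stated there. The authors' deposited comparison holds a mean normalised signal, a log2 fold change with its SE, a Wald score and raw and adjusted p-values per transcript, per the file headers. The whole table was fitted in edgeR 4.0.16 (R 4.3.3): filterByExpr left 20044 of 46746 rows, libraries were scaled by TMM, and EHP was compared with Sed by glmQLFit and glmQLFTest with group as the only term. Calls had a Benjamini-Hochberg adjusted p under 0.05. The SE is the log2 fold change divided by the square root of F, and intervals use the fit's degrees of freedom. CPM is per 1000000 counts; log2 CPM used a prior count of 2. The fit was tested on simulated counts. Exact permutation tests used scipy 1.17.1. No libraries were copies: chi-square per degree of freedom within groups was 2.65 to 10.9, where sampling noise gives about 1. Alternatives were DESeq2 1.42.0, other scalings and filters, a replicate block, each library left out, and equal depth. The transcript and the rules, such as naming the 2 rows most like it among rows of at least 50 CPM, were chosen with earlier results of these data known. Gene lists and cell type markers could not be paired with rows and were not analysed here.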

Additional observations from a re-analysis of the deposited data

How the results depend on the processing

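The Malat1 rise had the same sign and passed the threshold in 17 of 17 alternative fits, 2 of them chosen after seeing the data (the sum with the next 6 rows and the scaling to the 19 other abundant rows). The sum added few counts to those of Malat1, so its outcome was nearly fixed. Leaving out 1 library gave log2 fold changes of 0.71 to 0.84. The share difference was 1.03 to 1.33 points without 1 library, where the exact permutation p cannot go below 0.2, and 1.45 points with the 50 other most abundant rows out of the denominator. The CPM difference was 10341 to 13323 without 1 library, and the rank difference was -2 to -1.5. Counts of calls over all rows ranged from 5652 to 7787, against 7456, and stayed within 1.5 times. The fit with the replicate block gave 0.76 for Malat1 (edgeR adjusted p = 0.000179) and 7304 calls. Libraries of equal number gave no sign of pairing: their deviations correlated at -0.01 to 0.05, against -0.09 to 0.07 for unequal numbers. Some libraries correlated best with another number. With 3 libraries a group, such correlations cannot exclude a pairing, and the labels state none. Rank per length could not be given. Sampling noise in the Malat1 counts was 0.220% to 0.263% per library; effects of depth other than counting error were not tested.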
